A study of Mus musculus with 4 samples.

Results

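The Wnt ligands, receptors, antagonists and targets were followed in otocysts of Tbx2/3cDKO mouse embryos at E10.5, set against control otocysts. The members were taken by gene symbol, from a list chosen with earlier results of these data known. They comprised every probe whose symbol was Wnt, Fzd, Sfrp, Dkk or Rspo followed by a digit, and those of 17 named genes. The named genes were Frzb, Axin2, Lef1, Tcf7, Sp5, Sp8, Nkd1, Nkd2, Notum, Rnf43, Znrf3, Lgr4, Lgr5, Lgr6, Shisa3, Wisp1 and Ccnd1. This gave 70 of 39429 probes, for 58 of 31693 genes or unnamed targets. After a filter on dim probes, 43 of the 58 genes were tested, among 18416 genes in all. The filter asked for signal well above background in the channels of 1 genotype, mutant or control, on no fewer than 3 of 4 arrays.

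The otocyst is the epithelial vesicle that forms the inner ear, and Tbx2 and Tbx3 encode T-box factors that mostly repress transcription. Each of 4 two-colour arrays held 1 mutant and 1 control RNA from mechanically dissected NMRI otocysts. Mutants carried the Pax2-cre transgene and were homozygous for the floxed alleles Tbx2(fl) and Tbx3(fl), so deletion was limited to cells with a history of the cre. Controls were labelled Tbx2(fl/?);Tbx3(fl/?), with no cre named and the state of the second copy of each gene unstated. Replicates 1 and 2 were female and replicates 3 and 4 were male. The mutant RNA carried AlexaFluor647 on replicates 1 and 3 and AlexaFluor555 on replicates 2 and 4. The labels do not say whether each RNA came from 1 embryo or a pool, or from separate litters, so the p-values cover no more than the spread among these samples, which may be technical.

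Wnt proteins are secreted, lipid-modified ligands that bind Frizzled receptors together with the co-receptors Lrp5 and Lrp6. In the canonical branch the signal spares beta-catenin from destruction, and beta-catenin then acts with Tcf and Lef factors on target genes. Several targets feed back: Axin2, Nkd1, Nkd2, Notum, Rnf43 and Znrf3 each dampen the signal. R-spondins, read by Lgr4, Lgr5 and Lgr6, raise it by removing Rnf43 and Znrf3 from the membrane. In the mouse otocyst, Wnt signals from the dorsal hindbrain pattern the dorsal, vestibular side.

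The targeted gene Tbx3 was lower on every array, with log2 ratios of mutant over control of -3.38, -3.48, -3.61 and -3.25 on replicates 1 to 4. That was 10.8-fold, with an adjusted p of 4.21e-06 by limma with Benjamini-Hochberg adjustment over all genes tested, which applies to every adjusted p given here. The Tbx2 probe gave 0.06 ± 0.23 (SD over 4 arrays, adjusted p = 0.650), and the sources used here do not say whether it lies in the deleted part. All 20 otic epithelium markers were tested, and 2 were higher and 15 lower, with a median log2 ratio of -0.73. Summed levels of these markers (log2) were 17.2 to 17.4 in mutants and 18.1 to 18.2 in controls. Markers of other cell types moved as well. For each count of markers given here, the background was 13.5% of all genes tested higher and 10.1% lower. Otic neuroblast and neuron markers had 10 of 13 higher and 0 lower (14.6 to 14.9 in mutants, 13.9 to 14.1 in controls). Periotic mesenchyme markers had 13 of 17 higher and 0 lower (17.5 to 17.6 in mutants, 17.0 to 17.2 in controls), with Osr2 above background in no channel. Endothelial markers had 14 of 14 higher (15.37 to 15.43 in mutants, 14.66 to 14.82 in controls), with Erg in no channel, and erythroid markers 13 of 13 (20.0 to 20.2 in mutants, 18.5 to 19.1 in controls). Macrophage markers had 7 of 12 higher and 1 lower (12.7 to 13.1 in mutants, 12.4 to 12.6 in controls), with Fcgr1 in no channel. Neural crest and glial markers had 2 of 5 higher and 3 lower (14.5 to 14.6 in mutants, 14.6 to 14.9 in controls). Of 18 hindbrain markers only 8 could be tested, 3 higher and 2 lower (14.2 to 14.3 in mutants, 13.9 to 14.1 in controls), and Atoh1, Gsx1, Hoxb1, Olig3, Pax6, Pax7 and Ptf1a were in no channel. Dbx1, among the 3 higher, was above background on 3 of 4 mutant and 0 of 4 control arrays. The erythroid marker Rhag was above background on 4 of 4 mutant and 2 of 4 control arrays. Both passed the filter through the mutants alone, which favoured a higher call. These marker levels moved on the same arrays as the Wnt genes that passed the test, and their part in those results was not tested.

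Wnt pathway genes moved in both directions in mutant otocysts. Of the 43 tested, 23 (53.5%) passed an adjusted p of 0.05, 11 higher and 12 lower, against a background of 23.6% of all genes tested (13.5% higher and 10.1% lower). The median log2 ratio of the members was -0.01, against 0.00 over all genes, while the median of the absolute log2 ratio was 0.26 against 0.09. Wnt2b and Wnt3 entered the test through 1 genotype alone, which favoured a difference. Among the 41 members above background in all 8 channels, 21 were called (51.2%, against 22.5% of all genes so filtered). Changes of at least 1.5-fold that passed the test were found for 8 members (18.6%, background 5.27%). Sfrp2, Lgr5, Fzd1 and Frzb were higher, and Dkk1, Wnt4, Wnt6 and Wnt7b were lower. A ratio past 1.5-fold on each of the 4 arrays was found for 3 members (6.98%, background 3.1%), namely Sfrp2, Lgr5 and Dkk1. In whole otocysts, fewer cells of a type and less RNA per cell cannot be told apart.

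**Figure D1:**
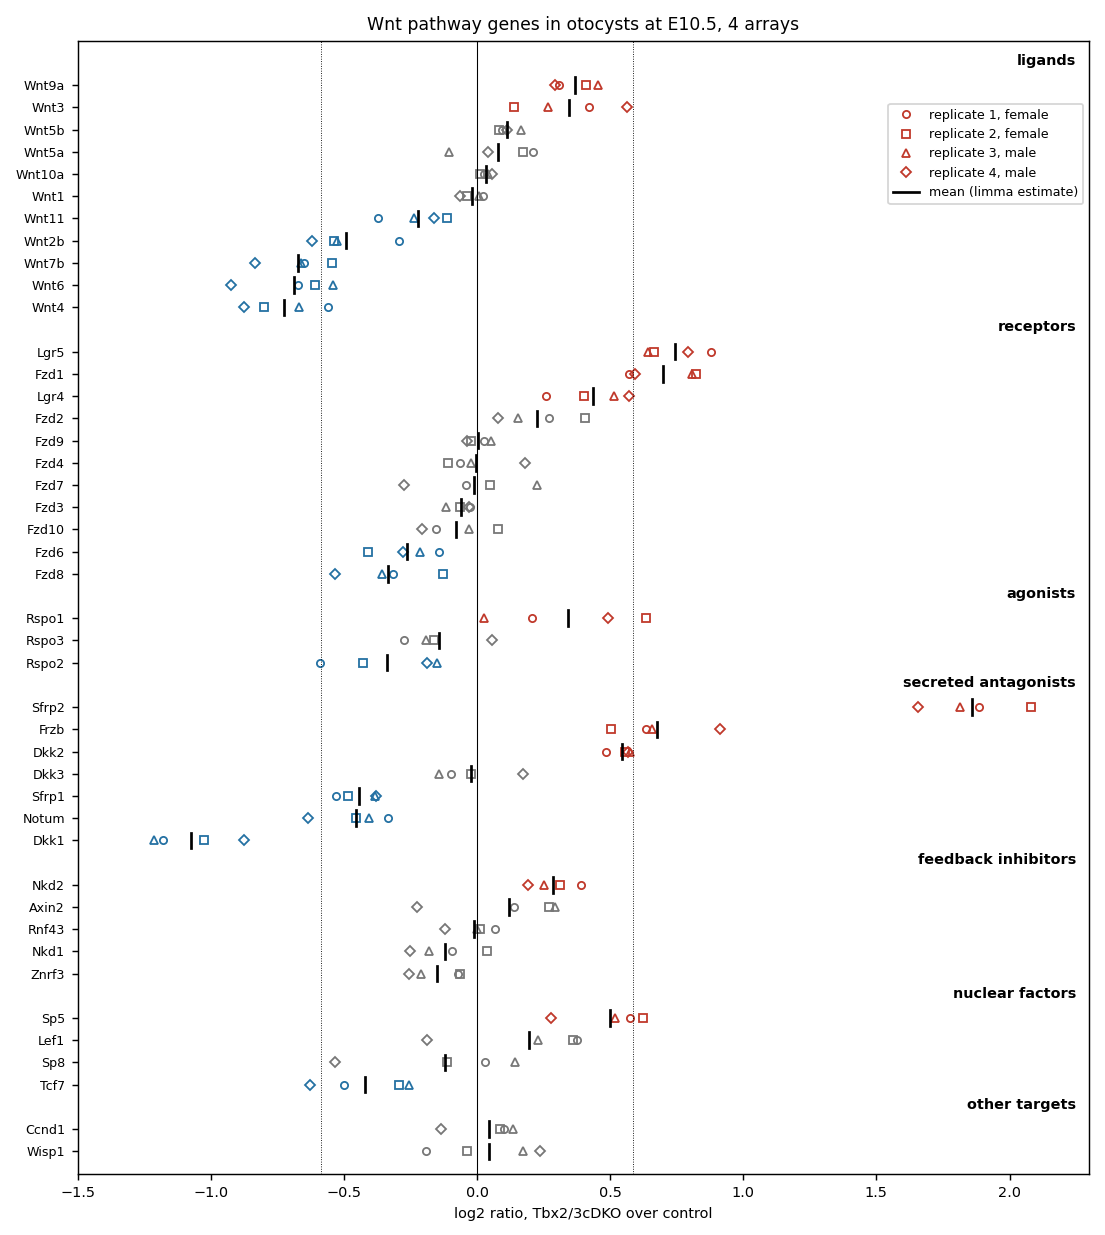
Log2 ratio of Tbx2/3cDKO over control (x axis) for the 43 tested Wnt pathway genes, by class, with a symbol per array and a black bar for the limma estimate; genes higher at an adjusted p of 0.05 are red, lower blue, others grey, and dotted lines mark 1.5-fold. Sfrp2 stands far to the right and Dkk1 to the left, and most classes hold both red and blue genes.

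Among the 19 Wnt ligand genes, 11 were tested, with 2 higher, 5 lower and a median log2 ratio of -0.02. Of those tested, 63.6% were called, against 23.6% of all genes tested. Wnt4, a ligand needed for kidney tubule formation, had log2 channel levels of 7.32, 7.47, 7.48 and 7.37 in mutants, against 7.88, 8.27, 8.15 and 8.25 in controls. Every mutant level lay under every control level. Here and below, the share of all genes without such overlap was not computed, and called genes were picked by these same values. The log2 ratios on replicates 1 to 4 were -0.56, -0.80, -0.67 and -0.88, a mean of -0.73 ± 0.14 (SD over 4 arrays, 1.65-fold lower, adjusted p = 0.000172, probe at chr4:136851690-136852258 of mm9), and -1.23 by the scanner's background-subtracted ratios. Wnt6, which in the mouse embryo is made largely by epithelia, had levels of 11.63, 11.65, 11.45 and 11.12 in mutants, against 12.30, 12.26, 11.99 and 12.04 in controls. Its log2 ratios were -0.67, -0.61, -0.54 and -0.92, a mean of -0.69 ± 0.17 (1.61-fold lower, adjusted p = 0.000623, chr1:74831461-74831520). The groups did not overlap. Wnt7b, a ligand of lung and kidney growth in the mouse, had levels of 9.76, 9.65, 9.52 and 9.65 in mutants, against 10.41, 10.20, 10.18 and 10.49 in controls. Its log2 ratios of -0.65, -0.54, -0.66 and -0.84 averaged -0.67 ± 0.12 (1.59-fold lower, adjusted p = 0.000502, chr15:85366896-85366955), and the groups did not overlap. The scanner's ratios put Wnt6 at -0.71 and Wnt7b at -0.76. Whether the 3 ratios differ from each other was not tested, and levels cannot be set against each other between probes.

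Both remaining ligands that fell were smaller or dimmer. Wnt2b was well above background on 4 of 4 control arrays and on 0 of 4 mutant arrays, so the filter kept it through the controls alone. It was at least 1.27-fold lower in mutants (adjusted p = 0.00139). Wnt11, a ligand known mainly for beta-catenin-independent signalling, gave -0.37, -0.11, -0.24 and -0.16, a mean of -0.22 ± 0.11 (adjusted p = 0.0230), and its channel levels overlapped between mutants and controls. That call was lost when replicate 1, 3 or 4 was left out (adjusted p = 0.150, 0.0695 and 0.0609). Wnt9a rose on all arrays, by log2 ratios of 0.31, 0.41, 0.45 and 0.29 (mean 0.37 ± 0.08, adjusted p = 0.00350). Wnt3 was well above background on 4 of 4 mutant and 0 of 4 control arrays, so the filter kept it through the mutants alone. It was at least 1.27-fold higher in mutants (adjusted p = 0.0195), a call lost without replicate 1 or 3 (adjusted p = 0.105 and 0.0597). Wnt5b, Wnt5a, Wnt10a and Wnt1 had log2 ratios of 0.11, 0.08, 0.03 and -0.02 and did not pass. Wnt2, Wnt3a, Wnt7a, Wnt8a, Wnt8b, Wnt9b, Wnt10b and Wnt16 were too dim to be tested. In RefSeq gene order, 4 pairs of ligand genes are direct protein-coding neighbours: Wnt6 with Wnt10a, Wnt3a with Wnt9a, Wnt9b with Wnt3, and Wnt10b with Wnt1. The Wnt6 and Wnt10a pair was the only one with both genes tested, and Wnt6 fell while Wnt10a had a log2 ratio of 0.03.

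RefSeq promoters (GRCm38.p6, 250 bases before to 50 after a gene's start) were found for 39 of the 58 members and searched on both strands for the T-box motif GGTGTGA and the Tcf motif CTTTGAT. The T-box motif was in 0 of the 39 and in 3.98% of all 32851 promoters. The Tcf motif was in at least 1 promoter of 3 of the 39 genes (Sp5, Wnt11 and Wnt5b) and in 3.73% of all promoters. Some genes have several promoters, so counts of genes and shares of promoters are not like for like. A match describes letters and shows no binding, and variants of either motif were not searched. Wnt11 is shown because it is the ligand that fell and holds the Tcf motif, in capitals, on the opposite strand at position -51 from the start. The window is chr7:98834862-98835161 on the plus strand, at the first of 2 starts in the table.
Wnt11 promoter: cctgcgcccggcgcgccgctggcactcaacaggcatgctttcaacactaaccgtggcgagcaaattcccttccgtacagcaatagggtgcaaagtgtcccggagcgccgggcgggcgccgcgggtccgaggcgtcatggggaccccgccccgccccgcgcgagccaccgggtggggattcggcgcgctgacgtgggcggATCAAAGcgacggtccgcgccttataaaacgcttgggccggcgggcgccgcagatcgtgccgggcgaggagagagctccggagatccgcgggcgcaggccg

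Of the 13 receptor genes, 11 were tested, with 3 higher, 2 lower and a median log2 ratio of -0.00. The share called was 45.5%, against 23.6% of all genes tested. Lgr5, an R-spondin receptor that marks stem cells of the gut and, in the mouse cochlea, progenitor-like supporting cells, had levels of 10.85, 10.67, 10.75 and 10.72 in mutants, against 9.97, 10.01, 10.11 and 9.92 in controls. The groups stood apart by more than their own spread. The log2 ratios were 0.88, 0.66, 0.64 and 0.79, a mean of 0.74 ± 0.11 (1.68-fold higher, adjusted p = 0.000290, chr10:114887403-114887462). Fzd1, a Frizzled receptor, had levels of 12.04, 12.16, 12.25 and 12.10 in mutants, against 11.47, 11.34, 11.44 and 11.50 in controls. Its log2 ratios of 0.57, 0.82, 0.81 and 0.59 averaged 0.70 ± 0.14 (1.62-fold higher, adjusted p = 0.000537, chr5:4754003-4754062), again with no overlap between the groups. Lgr4, the widely expressed relative of Lgr5, also rose, with log2 ratios of 0.26, 0.40, 0.51 and 0.57 (mean 0.44 ± 0.14, adjusted p = 0.00333).

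Other Frizzled genes changed little. Fzd6, a receptor tied to planar cell polarity, fell by 0.26 ± 0.11 on the log2 scale (adjusted p = 0.0121), and Fzd8 fell by 0.33 ± 0.17 (adjusted p = 0.0184). Both calls were lost without replicate 1 (adjusted p = 0.0564 for Fzd6 and 0.0746 for Fzd8) and without replicate 3 (0.0896 and 0.0964). Fzd2 gave 0.27, 0.40, 0.15 and 0.08 on the 4 arrays and missed the threshold (mean 0.23 ± 0.14, adjusted p = 0.0538), although its channel levels did not overlap between mutants and controls. It passed in 6 alternatives, with adjusted p from 0.0100 to 0.0493, among them the mean of its probes (0.0131) and leaving out replicate 4 (0.0108). A second Fzd2 probe gave a log2 ratio of 0.36 with an adjusted p of 0.0144 over all kept probes. Fzd9, Fzd4, Fzd7, Fzd3 and Fzd10 lay between -0.08 and 0.00 on the log2 scale and did not pass. Fzd5 and Lgr6 were too dim to be tested.

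The R-spondins, secreted ligands of the Lgr receptors, diverged. Rspo1 was higher on all arrays, by log2 ratios of 0.21, 0.63, 0.03 and 0.49 (mean 0.34 ± 0.27, adjusted p = 0.00617). Its ratio was larger on both arrays that carried the mutant RNA in AlexaFluor555, and the fit, which removes such a dye effect, put it at -0.22 (red over green, log2). Rspo2 was lower on all arrays, by -0.59, -0.43, -0.15 and -0.19 (mean -0.34 ± 0.21, adjusted p = 0.0278), and its call was lost without replicate 1 (adjusted p = 0.129) or 2 (0.0588). Rspo3 gave -0.14 ± 0.14 (adjusted p = 0.128, and 0.04998 with a genotype by sex term in the fit), and Rspo4 was too dim to be tested.

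Secreted antagonists held the largest changes among the members in both directions. Of 10 genes, 7 were tested, with 3 higher, 3 lower and a median log2 ratio of -0.02. The share called was 85.7%, against 23.6% of all genes tested. Sfrp2, a secreted Frizzled-related protein that binds Wnt ligands, had levels of 14.08, 14.05, 13.69 and 13.81 in mutants, against 12.19, 11.97, 11.88 and 12.15 in controls. The lowest mutant level lay well above the highest control level. The log2 ratios were 1.89, 2.08, 1.82 and 1.66, a mean of 1.86 ± 0.18 (SE 0.08, 3.63-fold higher, adjusted p = 2.75e-05, probe at chr3:83577864-83577923 of mm9). Dkk1, which blocks the co-receptors Lrp5 and Lrp6 and is itself a described Wnt target, had levels of 10.02, 10.24, 10.06 and 10.16 in mutants, against 11.20, 11.26, 11.27 and 11.03 in controls. The groups did not overlap. Its log2 ratios were -1.18, -1.03, -1.21 and -0.87, a mean of -1.07 ± 0.16 (SE 0.05, 2.10-fold lower, adjusted p = 4.39e-05, chr19:30621424-30621483). The promoters of these members, which had the largest ratio in each direction, are printed below for reference. Neither motif matched in its exact letters, which does not exclude variant sites. The windows are chr3:83766071-83766370 on the plus strand for Sfrp2 and chr19:30549447-30549746 on the minus strand for Dkk1 (GRCm38.p6).
Sfrp2 promoter: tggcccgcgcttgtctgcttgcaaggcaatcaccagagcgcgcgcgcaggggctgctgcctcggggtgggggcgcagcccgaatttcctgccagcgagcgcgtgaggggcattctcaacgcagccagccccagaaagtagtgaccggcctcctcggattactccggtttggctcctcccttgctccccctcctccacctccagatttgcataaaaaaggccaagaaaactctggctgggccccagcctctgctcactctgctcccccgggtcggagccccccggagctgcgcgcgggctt
Dkk1 promoter: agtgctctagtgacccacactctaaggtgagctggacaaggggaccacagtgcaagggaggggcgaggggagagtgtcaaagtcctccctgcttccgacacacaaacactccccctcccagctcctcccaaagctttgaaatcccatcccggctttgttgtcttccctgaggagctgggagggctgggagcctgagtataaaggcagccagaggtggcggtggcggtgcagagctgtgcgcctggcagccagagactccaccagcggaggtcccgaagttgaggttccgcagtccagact

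**Figure D2:**
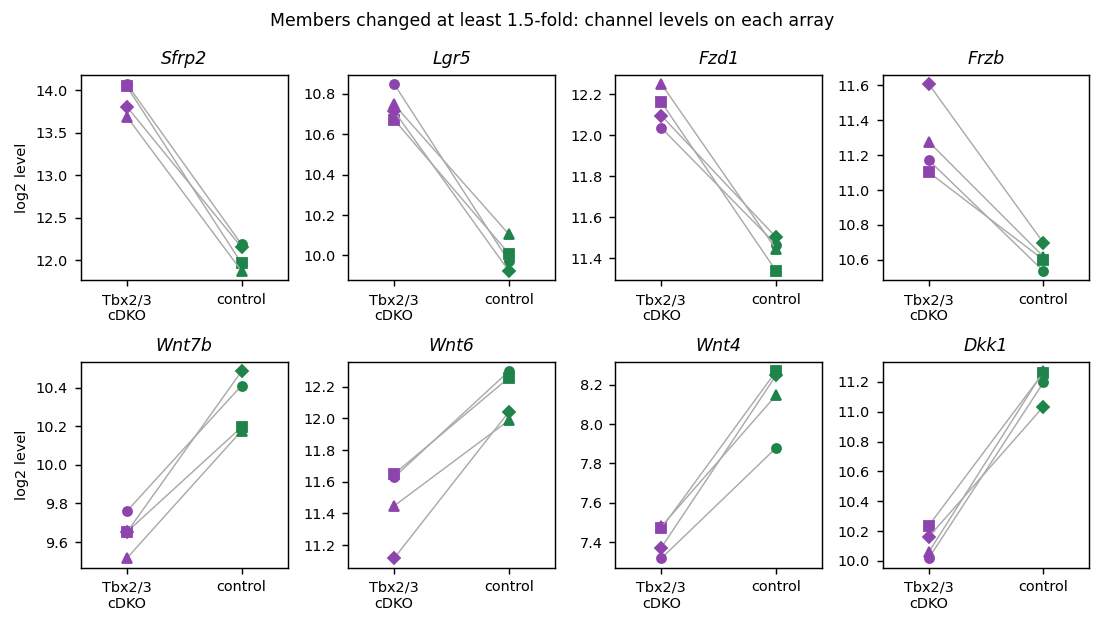
Normalised log2 channel level (y axis, own scale per panel) of the 8 Wnt pathway genes that passed the test with at least 1.5-fold, in Tbx2/3cDKO (left) and control (right) otocysts, with a symbol per replicate and lines joining the RNAs of 1 array. In each panel all 4 lines run the same way and the groups do not overlap, as with Sfrp2 at 13.69 to 14.08 in mutants and 11.88 to 12.19 in controls. The 8 genes were picked by these same values, and the share of all genes without overlap was not computed.

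The other antagonists split in the same manner. Frzb, a Frizzled-related Wnt antagonist that in mouse lung mesenchyme is described as repressed by Tbx2 and Tbx3, had levels of 11.17, 11.10, 11.28 and 11.61 in mutants, against 10.54, 10.60, 10.62 and 10.70 in controls. Its log2 ratios of 0.64, 0.50, 0.66 and 0.91 averaged 0.68 ± 0.17 (1.60-fold higher, adjusted p = 0.000976, chr2:80252582-80252641), with no overlap between the groups. Dkk2, a Dickkopf family member, rose evenly, by log2 ratios of 0.48, 0.56, 0.57 and 0.57 (mean 0.55 ± 0.04, 1.46-fold, adjusted p = 0.000456), and by 0.91 in the scanner's background-subtracted ratios. Notum and Sfrp1 fell alongside Dkk1. Notum, an enzyme that strips the lipid from Wnt ligands, gave -0.33, -0.45, -0.40 and -0.63 (mean -0.46 ± 0.13, adjusted p = 0.00145). Sfrp1 gave -0.53, -0.49, -0.38 and -0.38 (mean -0.44 ± 0.08, adjusted p = 0.00152), so Sfrp1 and Sfrp2 moved in opposite directions on every array. Dkk3, with a log2 ratio of -0.02, did not pass, and Dkk4, Sfrp4 and Sfrp5 were too dim to be tested.

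Of 6 feedback inhibitors 5 were tested, and 1 was higher and 0 were lower by limma (20% called, against 23.6% of all genes tested). Znrf3 had an unadjusted p of 0.0375 by limma and did not pass the adjustment. With a genotype by sex term in the fit Znrf3 was called lower (adjusted p = 0.0386), where 33.0% of all genes tested were called. Nkd2, which binds Dishevelled, gave 0.39, 0.31, 0.25 and 0.19 (mean 0.29 ± 0.09, adjusted p = 0.00997), and its second probe gave 0.36 (adjusted p = 0.00267 over all kept probes). The Nkd2 call was lost without replicate 1 (adjusted p = 0.0753). Axin2, the scaffold protein most often read as a marker of canonical signalling, had levels of 9.0, 8.87, 8.80 and 8.53 in mutants, against 8.86, 8.60, 8.51 and 8.76 in controls, and the groups overlapped. Its log2 ratios were 0.14, 0.27, 0.29 and -0.23, and it did not pass (mean 0.12 ± 0.24, adjusted p = 0.383). Replicate 4 alone was negative, and without it the mean was 0.24 with an adjusted p of 0.0354. Replicate 4 stood apart for other Wnt genes as well, in both directions. The median log2 ratio of nuclear Tcf partners and corepressors was -0.19 on replicate 4, against 0.10, -0.01 and 0.15 on the other arrays. For Wnt secretion and modulator genes that median was -0.20, against -0.44, -0.32 and -0.37. The cause was not tested. The ubiquitin ligases Rnf43 and Znrf3, which clear Frizzled receptors from the membrane, gave -0.01 ± 0.08 (adjusted p = 0.913) and -0.15 ± 0.10 (0.116), and Nkd1 gave -0.12 ± 0.12 (0.227). Shisa3 was too dim to be tested.

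All 4 nuclear factors were tested, with 1 higher, 1 lower and a median log2 ratio of 0.04. The share called was 50%, against 23.6% of all genes tested. Sp5, a zinc-finger factor described as a direct Tcf target, had levels of 12.58, 12.54, 12.32 and 12.02 in mutants, against 12.00, 11.92, 11.81 and 11.74 in controls. Each mutant level exceeded all control levels. Its log2 ratios were 0.57, 0.62, 0.52 and 0.28 (mean 0.50 ± 0.15, 1.41-fold higher, adjusted p = 0.00251). The Sp5 promoter, at chr2:70474673-70474972 on the plus strand (GRCm38.p6), is shown because it holds the Tcf motif, in capitals, on the same strand at position -104 from the start.
Sp5 promoter: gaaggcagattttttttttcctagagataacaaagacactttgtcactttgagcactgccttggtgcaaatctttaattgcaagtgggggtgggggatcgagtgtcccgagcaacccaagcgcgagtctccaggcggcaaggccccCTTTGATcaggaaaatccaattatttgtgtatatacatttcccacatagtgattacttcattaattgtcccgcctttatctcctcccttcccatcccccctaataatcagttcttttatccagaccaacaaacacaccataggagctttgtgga

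Tcf7, which encodes a Tcf factor, went the other way, with log2 ratios of -0.50, -0.29, -0.26 and -0.63 (mean -0.42 ± 0.17, adjusted p = 0.00750), although its channel levels overlapped between mutants and controls. A second Tcf7 probe gave -0.37. Lef1, a partner of beta-catenin and a target of it, gave 0.38, 0.36, 0.23 and -0.19 and did not pass (mean 0.19 ± 0.26, adjusted p = 0.187). As with Axin2, replicate 4 was the negative one, and without it Lef1 averaged 0.33 with an adjusted p of 0.00815. Lef1 also passed with a genotype by sex term in the fit (adjusted p = 0.0387). Sp8 gave -0.12 ± 0.30 (adjusted p = 0.326), and -0.22 with an adjusted p of 0.0422 without replicate 2. Of the other targets, the cell cycle gene Ccnd1 gave 0.05 ± 0.12 (adjusted p = 0.619) and the matricellular protein gene Wisp1 0.05 ± 0.20 (0.737), while a second Wisp1 probe gave -0.09.

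Further genes of the pathway, 62 in lists by role, gave 58 tested genes, of which 8 were higher and 10 lower (31.0% called, against 23.6% of all genes tested), with a median log2 ratio of 0.02. Genes for Wnt secretion and other extracellular modulators had 2 higher and 5 lower of 9 tested, with a median of -0.42. Apcdd1, a membrane-bound Wnt inhibitor, fell by 0.85 on the log2 scale (adjusted p = 0.000297). Porcn, the enzyme that attaches the lipid to Wnt ligands, fell by 0.81 (adjusted p = 0.00181), and the glypican gene Gpc4 fell by 0.59 (adjusted p = 0.00227). Wif1, a secreted Wnt-binding inhibitor, fell by 0.45 (adjusted p = 0.00829), and its probe was well above background on 1 of 4 mutant arrays and 4 of 4 control arrays. The filter thus kept Wif1 through the controls alone. Its log2 ratio was -1.10 by the scanner's ratios and -0.91 with background subtraction. Among 8 co-receptors and alternative receptors, Lrp6 fell by 0.46 (adjusted p = 0.0114) and Kremen2, a Dkk receptor, rose by 0.23 (adjusted p = 0.0305). The Lrp6 call was lost without replicate 3 (adjusted p = 0.0699), and that of Kremen2 without replicate 1, 3 or 4 (0.0940, 0.175 and 0.103). Kremen2 passed the filter through the mutant channels (3 of 4 mutant and 2 of 4 control arrays), and its adjusted p was also above the threshold with no background correction (0.0694), the scanner's ratios (0.0875), the authors' deposited table (0.0863) and median centring (0.0602). Of 13 tested genes of the destruction complex and cytoplasmic transducers, only Apc2 passed (log2 ratio 0.41, adjusted p = 0.00150), and Ctnnb1, which encodes beta-catenin, had a log2 ratio of 0.07. Of 10 nuclear partners and corepressors only Bcl9l passed (log2 ratio -0.21, adjusted p = 0.0309), and not without replicate 1, 3 or 4 (adjusted p = 0.0922, 0.192 and 0.103). The Bcl9l call was also lost with median centring (0.138), without a dye term (0.0630) and with a trended prior (0.0529).

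Planar cell polarity genes had 2 higher and 1 lower of 11 tested, while 23.6% of all genes tested were called. Celsr3, a cadherin of this branch with a role in neurons, gave log2 ratios of 1.30, 1.20, 0.93 and 0.74 (mean 1.04 ± 0.26, adjusted p = 0.000458), and Daam1 gave 0.34 (adjusted p = 0.0108). Celsr1, its epithelial relative, gave -0.06, -0.34, -0.33 and -0.88 (mean -0.40 ± 0.34, adjusted p = 0.0242). Without replicate 3 the calls of Celsr1 and Daam1 were lost (adjusted p = 0.135 and 0.0744), and without replicate 4 Celsr1 averaged -0.27. Other described targets had 2 higher and 2 lower of 7 tested. Ccnd2 (log2 ratio 0.55, adjusted p = 0.0109) and Cd44 (0.24, adjusted p = 0.0276) were higher, while Id2 (-0.46, adjusted p = 0.00133) and Mycn (-0.34, adjusted p = 0.0124) were lower. The call of Cd44 was lost without replicate 3 or 4 (adjusted p = 0.186 and 0.0519), and that of Mycn without replicate 1 (0.0799).

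**Figure D3:**
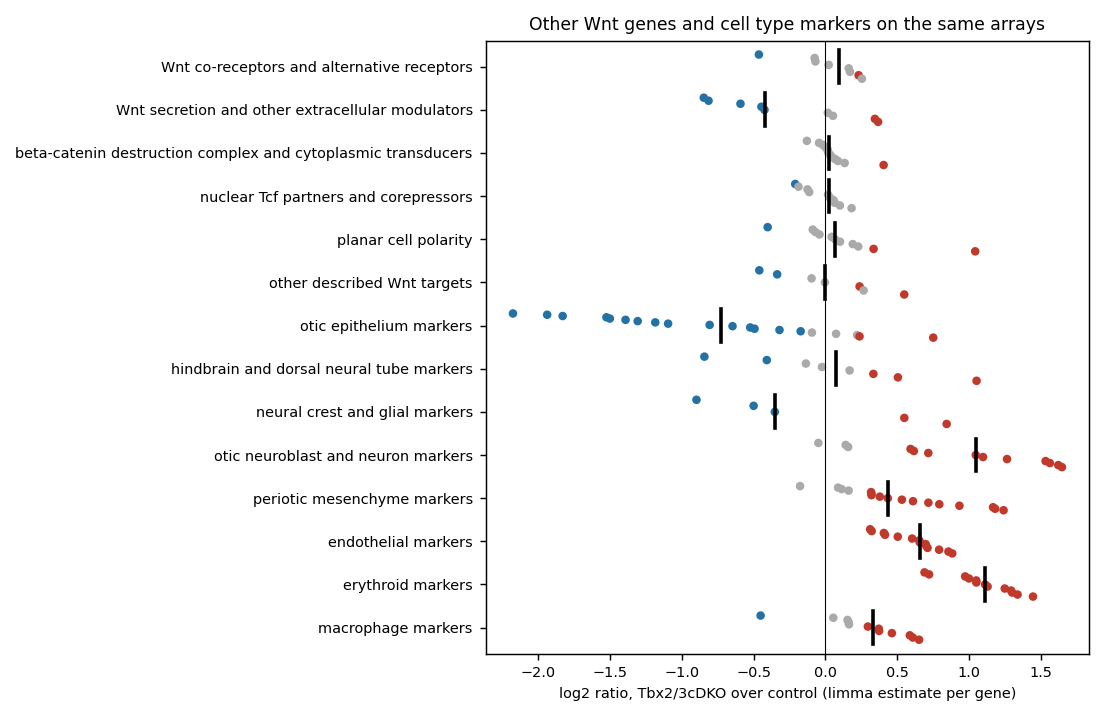
Log2 ratio of Tbx2/3cDKO over control (x axis) of each tested gene in the further Wnt lists and the cell type marker lists, with a point per gene (red higher, blue lower at an adjusted p of 0.05, grey neither) and a black bar for the list's median. The erythroid markers lie to the right at a median of 1.11 and the otic epithelium markers to the left at -0.73, and among the Wnt lists the secretion and modulator genes have the lowest median, -0.42.

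The difference between the sexes (log2 ratio in males minus that in females) passed an adjusted p of 0.05 for 0 of the 43 members by limma, against 0.0109% of all genes tested, and the smallest adjusted p among them was 0.185. At an unadjusted p under 0.05 there were 3 members (6.98%, background 15.5%), with 2 arrays of each sex. Rspo2 had a log2 ratio of -0.17 in males and -0.51 in females (unadjusted p = 0.00890). Lef1 stood at 0.02 in males and 0.37 in females (unadjusted p = 0.0193), and Wisp1 at 0.20 in males and -0.11 in females (unadjusted p = 0.00918). None of these differences passed the adjustment. For the 8 genes past 1.5-fold the ratio had the same sign in both sexes. They were picked by their mean over these same arrays, so this is no separate support.

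**Figure D4:**
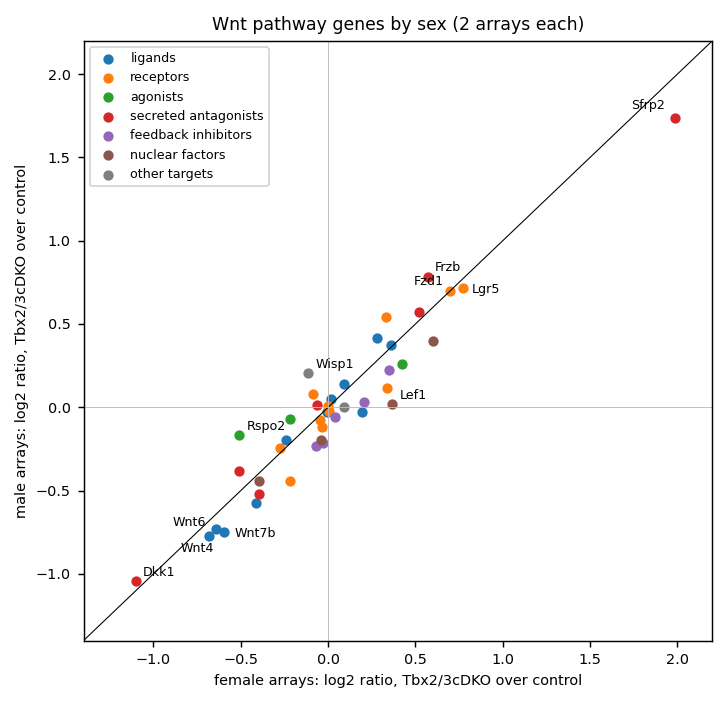
Log2 ratio of Tbx2/3cDKO over control in males (y axis) against females (x axis), 2 arrays each, for the 43 tested Wnt pathway genes, coloured by class, with the line of equal ratios. Sfrp2 and Dkk1 lie at the ends, and the labelled Rspo2, Lef1 and Wisp1 are the members with an unadjusted p under 0.05.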

How the data were processed

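RNA of the otocysts was amplified and coupled to the AlexaFluor dyes, per the labels' protocols. Agilent Feature Extraction 10.7.3.1 read the spot and local background intensities, per the submitters' processing notes. Its files also hold log10 ratios (red over green) and flags for detected, non-uniform or saturated spots, per the file headers. The authors' deposited value table holds signed fold ratios. On the log2 scale 90.8% to 93.3% of these matched the scanner's ratios of mutant over control within 0.001, with a column median of 0 on every array. How the others were made is not stated in the labels or headers. The arrays shared 1 slide and 1 scan, per the headers, so a slide effect could not be tested.

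Mean signals were corrected with normexp (offset 50) and normalised by loess within arrays in limma 3.58.1 (R 4.3.3). Non-uniform spots, 21 to 32 per array, were dropped, and 0 were saturated. From 58.4% to 63.2% of spots were detected per array and channel. The filter kept 23186 of 39429 probes, and the brightest kept probe stood for its gene. RefSeq names (GRCm38.p6) were matched through 26412 accessions, 3854 symbols and 735 synonyms, and 8428 probes stayed with the name in the files. Probe coordinates are the files' own (mm9), and no annotation of that build was used, so the exon or UTR of a probe is not given.

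The model (lmFit, then eBayes with 4.60 prior and 2 residual degrees of freedom) held a genotype term signed by dye and a dye term. Adjustment was by Benjamini-Hochberg across all genes tested. An SD over the arrays still contains the dye effect. Channel levels followed loess and Aquantile normalisation. Where a genotype had no detected channel, the fold is a bound ("at least N-fold"), set against the higher of the dim probe's own signal and the lowest detected signal. The number of arrays limits the precision.

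Members called with at least 1.5-fold were given with the value on each array. Feedback genes, probes that disagreed, Tbx2 and Tbx3, and up to 4 called genes of each further list were given too, some by their mean alone. Members outside this rule were named to complete the counts of each class, after their values were seen. The members and lists were chosen with earlier results of these data known. The steps were tested on simulated data. Alternatives covered background correction, normalisation, the scanner's and the authors' ratios, the filter, dye and sex terms, the probe rule, array weights, moderation and leaving out each array. A planned comparison of protein sequences was not made. Not every marker is reported here.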

Additional observations from a re-analysis of the deposited data

Results flagged for a closer look

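Among the members that the filter kept out of the test, Shisa3 and Sfrp5 were above background in mutant arrays alone. Shisa3, a membrane protein that in mouse lung mesenchyme is described as repressed by Tbx2 and Tbx3, was well above background on 2 of 4 mutant arrays and 0 of 4 control arrays. Its log2 channel levels were 6.82, 6.85, 7.15 and 7.37 in mutants, against 6.43, 6.20, 6.51 and 6.83 in controls, so the groups overlapped across arrays. The log2 ratios within arrays were 0.39, 0.65, 0.64 and 0.54, with the control channel undetected on each. Over all arrays Shisa3 was at least 1.23-fold higher in mutants, as a bound, and the filter kept it out of the main test. Sfrp5 was well above background on 1 of 4 mutant arrays and 0 of 4 control arrays. None of the 43 tested members had an array standing apart from the other 3 by Dixon's criterion.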

How the results depend on the processing

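Of the 23 members called, 17 kept the call and direction in all 16 alternatives run, with Wnt2b absent from the alternative that demands signal in all 8 channels, and 6 lost it in at least 1: Fzd6, Fzd8, Nkd2, Rspo2, Wnt11 and Wnt3. None reversed. Without the filter, Dkk4 (detected in 0 of 8 channels) and Shisa3 (detected on 2 of 4 mutant and 0 of 4 control arrays) were called too. Such calls say little where channels are undetected. Besides the losses without a replicate given with each gene, median centring ended the calls of Fzd6 (adjusted p = 0.0529) and Wnt11 (0.117), and background subtraction that of Rspo2 (0.0533). Leaving out 1 replicate in turn gave 9 to 14 members higher and 8 to 12 lower, against 11 and 12 with all arrays. Over all genes it gave 1560 to 2492 higher and 1026 to 1785 lower, against 2485 and 1868, with the low ends from leaving out replicate 3, and 1145 lower without replicate 1. The sex difference was called for 2 genes of all tested, for 33 with no background correction, 555 with median centring, 0 with the scanner's log ratios and 1 without a dye term, and for 0 members in each of these. The scanner's log ratios, with background subtracted, gave larger ratios for dim probes (log2 ratios of -1.64 for Wnt2b, -1.23 for Wnt4, 1.09 for Wnt3, 0.91 for Dkk2, -0.43 for Wnt11, 0.44 for Kremen2 and -0.45 for Bcl9l). The causes were not tested. Each ratio pairs the mutant and control RNA of 1 array, so the fit is a paired one and no further block was added. Dim probes limit the ligands most: 8 of 19 could not be tested.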
